A study of Mus musculus with 4 samples.

Results

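The macrophage state genes are 8 genes that mark the presence and the functional state of macrophages, chosen by name: Csf1r, Nos2, Chil3, Retnla, Trem2, Apoe, Cd163 and Marco. All 8 were found among the 47729 genes measured, and all 8 passed the minimum mean of 1 RPM, reads scaled to a total of 1000000, that left 13694 genes for testing. They were examined in tumors formed by LLC cells, a Lewis lung carcinoma line of the mouse, grafted under the skin of the back of syngeneic C57BL/6 mice and taken after 5 days. Tumors labelled LLC-Chem arose from cells carrying a pEFIN plasmid for the bioactive 1-157 form of murine chemerin, and tumors labelled LLC arose from cells given as wild type, without that plasmid. Whether the control cells carried an empty vector is not given by the labels, and the study's methods speak of clones, so that a difference between the groups cannot be told apart from a difference between cell clones. Each group is 2 pools of 3 tumors, and the values that follow are named by group and pool. Replicates are pools, so the error given is the spread between pools and not between single tumors.

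Macrophages depend on the receptor encoded by Csf1r, which binds the growth factors CSF1 and IL-34. Interleukin 4 and interleukin 13 acting through STAT6 induce Retnla and Chil3 in mouse macrophages, a state called alternative activation, whereas interferon gamma and bacterial products induce Nos2, a mark of classical activation. NOS2 makes nitric oxide from arginine. Trem2 and Apoe belong to a lipid-handling state seen in tumor macrophages, and Cd163 and Marco encode scavenger receptors. In whole tumors, a lower level may come from fewer cells of a type or from less RNA per cell, which cannot be told apart here.

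The pools held 28470000 to 33990000 reads, fitted from the spacing of the deposited values, so that 3 reads, the smallest amount taken as measurable, correspond to 0.0883 to 0.105 RPM, which covers counting error only. Rarres2, the gene of chemerin, stood at 102.2 and 98.2 RPM in LLC and at 105.9 and 105.8 RPM in LLC-Chem (log2 fold change 0.08 with an SE of 0.09, adjusted p = 0.541, limma). The labels name murine chemerin as the insert, and the level of this gene did not show it. In whole tumors, reads of the grafted cells and of the host cannot be told apart here, so this level cannot settle the label LLC-Chem. That label is used in what follows only as the name the submitters gave these pools. Every direction given rests on that label. Macrophage identity was present in every pool, with summed levels of 17 identity genes between 2451 and 9179 RPM. The weakest value among the 8 genes was Marco in the second LLC-Chem pool, at an estimated 23 reads. Since 1 step of the deposited values spans 1.42 to 1.70 reads, read counts are estimates to within about 1 read.

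Of the 8 genes, 3 fell in the pools labelled LLC-Chem: Apoe, Csf1r and Trem2. Fold differences of the means were 6.10 for Apoe, 2.71 for Csf1r and 2.28 for Trem2. Across all genes tested 13.5% were called lower and 9.54% higher by limma at an adjusted p under 0.05, shares that also stand as the background of each gene list described below. No member was called higher in the reported limma fit or by edgeR. At an unadjusted p under 0.05 that fit had 1 member higher, Retnla, and both DESeq2 and a limma fit that paired the first pool of 1 group with the second of the other called the same gene higher. The median log2 fold change of the 8 genes was -0.98, against -0.04 for all genes tested. Both LLC-Chem pools were below both LLC pools for 4 members, against 39.3% of all genes, and above them for 1 member, Retnla, against 33.1% of all genes. The remaining 3, Nos2, Cd163 and Marco, had overlapping pools.

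**Figure D1:**
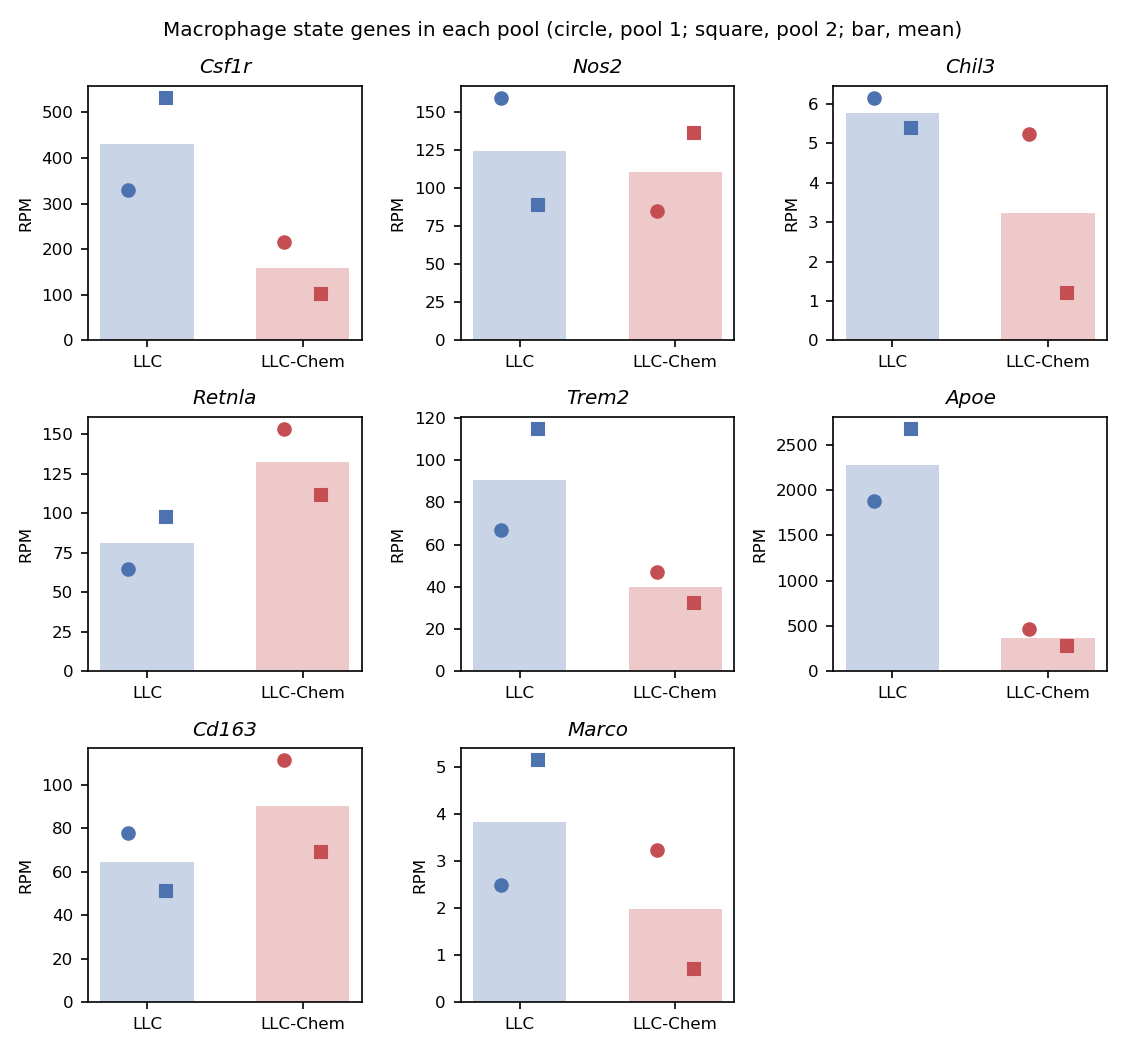
Levels of the 8 macrophage state genes in RPM (vertical axes, linear from 0) in each pool, with circles for pool 1, squares for pool 2 and bars for the mean of the 2 pools of a group. Apoe, Csf1r, Trem2 and Chil3 are lower in both LLC-Chem pools, Retnla is higher in both, and Nos2, Cd163 and Marco overlap.

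**Figure D2:**
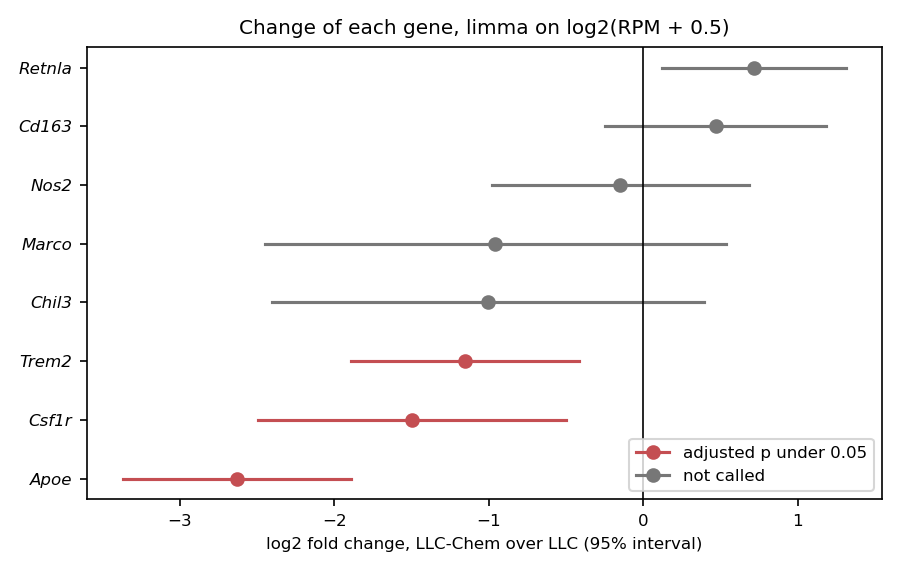
Log2 fold change of each gene in LLC-Chem over LLC tumors (horizontal axis) with its 95% interval, from limma on log2(RPM + 0.5) over 2 pools a group. Red marks the 3 genes with an adjusted p under 0.05, from -2.63 for Apoe to -1.15 for Trem2.

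Promoter sequences are shown for Retnla and Cd163, whose means were higher in LLC-Chem without a call, and for Trem2 and Apoe, which fell. They are the bases just before the start given by RefSeq on GRCm38.p6, on the strand of the gene, of up to 250 bases, and 6 of the 8 members matched an entry. The Retnla window lies at chr16:48842359-48842550 on the plus strand, ending where the GENCODE gene model begins, that of Cd163 at chr6:124304401-124304650 on the plus strand, that of Trem2 at chr17:48346151-48346400 on the plus strand, and that of Apoe at chr7:19699189-19699438 on the minus strand. Capitals mark matches, on either strand, to 5 motifs. These were the TATA box, written TATAAA, the core bound by PU.1, the factor that specifies myeloid cells, written GAGGAA, and the motifs of C/EBP, written TTGCNNAA, of STAT6, written TTCNNNNGAA, and of AP-1, written TGANTCA.
Retnla: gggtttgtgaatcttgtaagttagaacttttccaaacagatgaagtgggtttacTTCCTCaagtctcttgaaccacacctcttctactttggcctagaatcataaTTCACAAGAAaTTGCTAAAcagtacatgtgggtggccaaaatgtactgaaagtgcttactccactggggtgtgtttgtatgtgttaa
Cd163: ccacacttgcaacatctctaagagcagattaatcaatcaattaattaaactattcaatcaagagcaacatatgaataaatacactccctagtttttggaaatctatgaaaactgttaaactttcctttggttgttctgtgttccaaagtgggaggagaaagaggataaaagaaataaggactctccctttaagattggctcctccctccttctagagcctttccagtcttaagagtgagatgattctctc
Trem2: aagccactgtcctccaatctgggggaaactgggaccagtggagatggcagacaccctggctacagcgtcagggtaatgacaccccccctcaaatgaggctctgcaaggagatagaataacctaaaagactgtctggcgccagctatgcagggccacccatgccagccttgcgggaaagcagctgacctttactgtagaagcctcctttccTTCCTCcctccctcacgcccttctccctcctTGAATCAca
Apoe: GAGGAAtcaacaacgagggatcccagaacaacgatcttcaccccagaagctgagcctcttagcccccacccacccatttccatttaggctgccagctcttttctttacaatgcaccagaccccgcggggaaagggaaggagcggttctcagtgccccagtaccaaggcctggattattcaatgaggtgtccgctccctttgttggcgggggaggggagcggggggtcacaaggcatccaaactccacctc

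Retnla was the only one of the 6 members with a match to the STAT6 letters, 145 to 136 bases before its start, next to a C/EBP match from 134 to 127 bases before it. Its PU.1 core begins 196 bases before the start, and a TATA box, in the bases not printed, 30 bases before it. Trem2 held a PU.1 core 40 bases and an AP-1 match 9 bases before the start, and Apoe a PU.1 core 250 bases before the first of its 3 starts. Of the windows of the other 2 starts, not printed, that of the start at base 19698621 held overlapping TATA box matches on both strands, 100 and 96 bases before it, and that of the start at base 19698398 a PU.1 core 132 bases before it. Marco held a PU.1 core 146 bases before its start, in a window not printed, and Chil3 held no match. The Cd163 window held no match. Over 32851 promoters of 250 bases, 5.85% held the STAT6 letters, 9.56% the C/EBP letters, 23.3% the PU.1 core, 12.4% the TATA box and 6.75% the AP-1 letters. Such a match describes the letters only.

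Among the receptors and lipid genes, Apoe encodes apolipoprotein E, which carries cholesterol and is secreted by macrophages among other cells. Apoe (ENSMUSG00000002985, chromosome 7 from 19696109 to 19699188 of GRCm38, minus strand) stood at 1876 and 2674 RPM in LLC and at 466 and 279.9 RPM in LLC-Chem. Both LLC-Chem pools were far below both LLC pools, and the gap exceeded the 1.43-fold and 1.67-fold differences within the groups. Group means were 2275 ± 564 RPM for LLC and 373 ± 132 RPM for LLC-Chem (SD, n = 2 each), which gave a log2 fold change of -2.63 with an SE of 0.30 and a 95% interval from -3.37 to -1.89 (adjusted p = 0.0117, limma). Its fall was called in 11 of 12 alternative settings that used all 4 pools.

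Trem2 encodes a receptor for lipids and lipoproteins that signals through the adaptor TYROBP. Trem2 (ENSMUSG00000023992, chromosome 17 from 48346401 to 48354147, plus strand) stood at 66.9 and 114.7 RPM in LLC and at 47.1 and 32.5 RPM in LLC-Chem. The groups did not overlap, with the second LLC pool standing highest. The log2 fold change was -1.15 with an SE of 0.30 and an interval from -1.89 to -0.41 (adjusted p = 0.0455, limma). The call was near the threshold and held in 5 of 12 alternative settings, with an adjusted p of 0.0542 by edgeR and of 0.0016 by DESeq2.

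Of 16 genes of the TREM2 and lipid-associated program, all tested, 6 fell and 10 were not called, with a median log2 fold change of -0.70. Beside Apoe and Trem2 these were Tyrobp, the adaptor of TREM2 (-1.44, adjusted p = 0.0294), Gpnmb, a lysosomal glycoprotein (-1.26, adjusted p = 0.0178), Fabp5, which binds fatty acids (-1.59, adjusted p = 0.0225), and Cst7, a cystatin (-1.64, adjusted p = 0.0208), all by limma. Ctsb, Spp1 and Ctsd, the most abundant of those not called, gave -0.68, -0.10 and -0.74. Osteopontin, encoded by Spp1, measured 1705 and 855 RPM against 1021 and 1241 RPM, with overlapping pools.

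The APOE partners moved in part with it. Of 10 tested genes of APOE receptors and cholesterol efflux, Apoe included, 6 fell, 1 rose and 3 were not called. The sterol-sensing nuclear receptor LXR alpha, encoded by Nr1h3, fell from 19.8 and 17.5 to 6.15 and 4.50 RPM, a log2 fold change of -1.73 (adjusted p = 0.0126, limma). The cholesterol exporters Abca1 and Abcg1 had log2 fold changes of -1.30 and -1.56 and fell (adjusted p = 0.0266 and 0.0159, limma), and the lipoprotein receptors Lrp8 and Vldlr fell by 0.99 and 0.85 (adjusted p = 0.0294 and 0.0209, limma). Nr1h2, which encodes LXR beta, rose by 0.42 (adjusted p = 0.0429, limma). The receptor Lrp1, at 863 and 1061 RPM against 1027 and 997 RPM, had overlapping pools. Pltp and Lcat were not called either, with log2 fold changes of -0.93 and -0.17, and Apoc1 and Apoc2 stayed below the minimum.

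Csf1r (ENSMUSG00000024621, chromosome 18 from 61100598 to 61132149, plus strand) stood at 329 and 532 RPM in LLC and at 217 and 100.7 RPM in LLC-Chem. The groups did not overlap, but they varied within themselves by 1.62-fold and 2.15-fold. Its log2 fold change was -1.50 with an SE of 0.40 and an interval from -2.50 to -0.50 (adjusted p = 0.0490, limma). It was the member nearest to the threshold and was called in 4 of 12 alternative settings. Of its exonic bases, 15.1% lie under exons of Hmgxb3 on the other strand, where reads cannot be assigned without strand, and the use of strand is not given in the sources used here.

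Of the 17 macrophage identity genes, Csf1r included, 10 fell and 7 were not called, and 16 had both LLC-Chem pools below both LLC pools. The median log2 fold change was -1.26. Fcgr1, a high-affinity IgG receptor, fell by 2.28 (adjusted p = 0.0100, limma), Aif1, which encodes IBA1, by 2.09 (adjusted p = 0.00665, limma), and Ccr2, the chemokine receptor of inflammatory monocytes, by 1.51 (adjusted p = 0.0152, limma). Cx3cr1, Tyrobp, Spi1, which encodes PU.1, Fcer1g, Cd14 and Itgam fell by 1.85, 1.44, 1.36, 1.26, 1.22 and 0.82 on the log2 scale. Lyz2, C1qb and C1qa were not called, with log2 fold changes of -1.27, -0.73 and -0.66. Adgre1, Cd68 and C1qc, named to complete the list, were not called either, at -1.01, -0.86 and -0.62. Mertk was the only identity gene with overlapping pools, at 27.9 and 35.8 against 30.1 and 29.4 RPM, and is named here after its values were seen.

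Of 16 tested growth factors and cytokine receptors, 6 fell, 1 rose and 9 were not called, beside 13.5% lower and 9.54% higher over all genes, so that the 1 that rose is no result about the list. Its ligand Csf1 stood at 200.99 and 195.99 RPM in LLC and at 235 and 452 RPM in LLC-Chem, a log2 fold change of 0.71 that was not called (adjusted p = 0.131, limma). Il10ra and Csf2rb, receptor chains for interleukin 10 and for GM-CSF, fell by 1.64 and 1.55, and Il13ra1, Il4ra and Ifngr2 fell by 1.47, 0.96 and 0.56. Il1rl1, which encodes the receptor of interleukin 33, rose from 151 and 143 to 235 and 356 RPM (limma log2 fold change 0.97, adjusted p = 0.0296). Il33 and Tgfb1 gave 0.02 and -0.33 and were not called. Il4, named here as a ligand of Il4ra, stood at 2.05 and 1.55 RPM in LLC and at 3.20 and 3.95 RPM in LLC-Chem. It was not called (limma log2 fold change 0.83, adjusted p = 0.0567). Csf2, Il13 and Ifng stayed below the minimum.

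Nos2 encodes inducible nitric oxide synthase. Nos2 (ENSMUSG00000020826, chromosome 11 from 78920787 to 78960254, plus strand) stood at 159 and 89.1 RPM in LLC and at 84.9 and 135.9 RPM in LLC-Chem. The pools overlapped, and the second LLC-Chem pool, lowest for 5 of the 8 members, was the higher of its group for Nos2. Its log2 fold change was -0.15 with an interval from -0.98 to 0.68 (adjusted p = 0.759, limma), so a change of either sign within that interval is not excluded.

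Of 10 tested genes of arginine metabolism, 3 fell and 7 were not called. Nos3, the endothelial nitric oxide synthase, fell by 1.41, Ass1, which rebuilds arginine from citrulline, by 0.94, and Odc1, which makes polyamines from ornithine, by 0.77 in log2 (adjusted p = 0.0348, 0.0300 and 0.0473, limma). Nos3, with a mean of 0.850 RPM in LLC-Chem, passed the minimum only through the LLC pools. Oat and the arginine transporter Slc7a1 were not called, at -0.06 and -0.03. Of 14 tested genes of classical activation, 5 fell and 9, Nos2 among them, were not called. Il1b fell from 63.6 and 26.2 to 8.40 and 3.0 RPM, a log2 fold change of -2.89 (adjusted p = 0.0265, limma). Tnf, Cxcl9, Cd80 and Irf5 fell by 1.76, 1.60, 1.16 and 1.09. Socs3 and Irf1, with overlapping pools, gave -0.21 and 0.57, and Il12a and Il12b stayed below the minimum.

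Retnla encodes RELM alpha, a secreted protein induced by interleukin 4. Retnla (ENSMUSG00000061100, chromosome 16 from 48842551 to 48844461, plus strand) stood at 64.8 and 97.3 RPM in LLC and at 153 and 111.7 RPM in LLC-Chem. Both LLC-Chem pools were above both LLC pools. The log2 fold change was 0.72 with an SE of 0.24 and an interval, not adjusted for the number of genes, from 0.12 to 1.31 (adjusted p = 0.0802, limma). It was therefore not called, although DESeq2 gave an adjusted p of 0.0219.

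Chil3 encodes Ym1, a chitinase-like protein of alternatively activated macrophages. Chil3 (ENSMUSG00000040809, chromosome 3 from 106147554 to 106167564, minus strand) stood at 6.15 and 5.40 RPM in LLC and at 5.25 and 1.20 RPM in LLC-Chem. The first LLC-Chem pool lay just under the LLC pools, and the second carried most of the difference. The log2 fold change was -1.0 with an interval from -2.40 to 0.40 (adjusted p = 0.226, limma), and it was -0.12 without the second LLC-Chem pool and -1.88 without the first. Of the words of 50 bases in its exons, 26.9% occur in other genes, mainly Chil4, so its counts are uncertain. Chil4 was listed at 0 in every pool.

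Of 14 tested genes of alternative activation, 2 fell, 1 rose and 11 were not called, which is close to the 13.5% lower and 9.54% higher over all genes and no result about the list. Clec10a, a lectin, fell from 93.4 and 138 to 60.8 and 40.1 RPM (limma log2 fold change -1.19, adjusted p = 0.0325), and Il4ra, the receptor chain shared by interleukin 4 and 13, fell as given above. Ccl24, which encodes eotaxin 2, rose from 7.15 and 7.10 to 26.8 and 18.9 RPM (limma log2 fold change 1.59, adjusted p = 0.0133). Mrc1, the mannose receptor, at 476 and 424 against 482 and 383 RPM, and Stat6, at 167 and 192 against 179 and 166 RPM, had overlapping pools. Pdcd1lg2 and Ccl17 stayed below the minimum.

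Cd163 encodes the receptor that takes up haptoglobin-haemoglobin complexes. Cd163 (ENSMUSG00000008845, chromosome 6 from 124304656 to 124330527, plus strand) stood at 78.0 and 51.3 RPM in LLC and at 111 and 69.2 RPM in LLC-Chem. The pools overlapped. Its log2 fold change was 0.47 with an interval from -0.25 to 1.18 (adjusted p = 0.262, limma).

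Marco encodes a scavenger receptor for bacteria and particles. Marco (ENSMUSG00000026390, chromosome 1 from 120474538 to 120505024, minus strand) stood at 2.50 and 5.15 RPM in LLC and at 3.25 and 0.700 RPM in LLC-Chem, estimated at 77, 146, 110 and 23 reads. The pools overlapped, and both groups varied more than 2-fold within themselves. The log2 fold change was -0.96 with an interval from -2.45 to 0.54 (adjusted p = 0.271, limma), and it was -0.13 without the second LLC-Chem pool and -1.78 without the first.

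Of 15 tested scavenger receptors and haemoglobin-clearance genes, 4 fell, 1 rose and 10 were not called. Olr1, Scarb1, Msr1 and Stab1 fell, with log2 fold changes of -1.34, -1.02, -0.82 and -0.79 (adjusted p = 0.0284, 0.0191, 0.0397 and 0.0264, limma). Olr1, with a mean of 0.675 RPM in LLC-Chem, passed the minimum only through the LLC pools. Lyve1, a hyaluronan receptor of lymphatic endothelium and of some tissue macrophages, rose from 22.4 and 18.1 to 177 and 120.4 RPM (limma log2 fold change 2.83, adjusted p = 0.00665). Hmox1, the haem-degrading enzyme, and Folr2, a folate receptor of resident macrophages, were not called, at -0.49 and -0.55. Clec4f was listed at 0 in every pool, and Stab2 and Hpx stayed below the minimum.

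**Figure D3:**
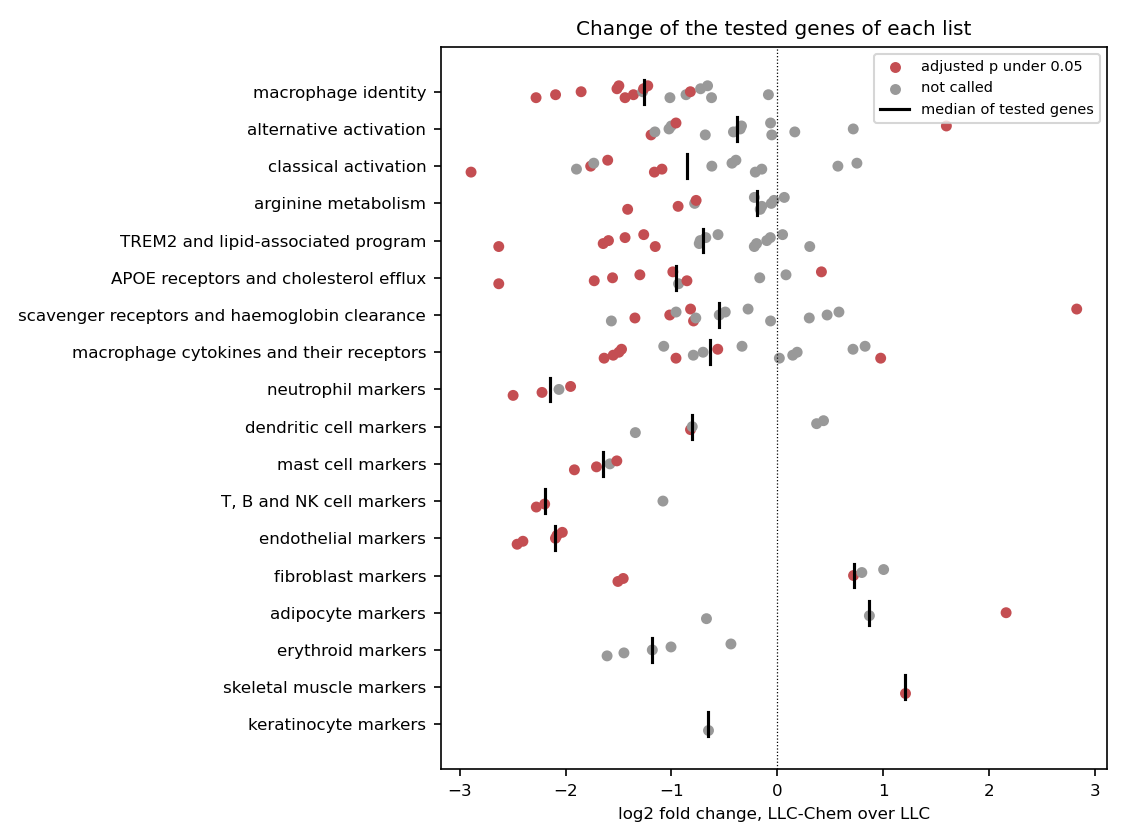
Log2 fold change in LLC-Chem over LLC tumors (horizontal axis) of each tested gene of 18 gene lists (rows), with red for an adjusted p under 0.05, grey for genes not called and a black bar for the median of the list. Macrophage identity has a median of -1.26 and alternative activation of -0.38, and the highest point is Lyve1 at 2.83.

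To set each gene against the macrophage genes of the same pool, the mean log2(RPM + 0.5) of 16 identity genes, Csf1r left out, was subtracted. That mean itself was 7.26 and 7.51 in LLC pools and 6.53 and 5.86 in LLC-Chem pools, a difference of -1.19. A gene at the same RPM in both groups is therefore higher on this scale, by the size of that fall. The identity genes did not fall alike, with log2 fold changes of -2.28 for Fcgr1, -0.66 for C1qa and -0.08 for Mertk. A difference on this scale therefore depends on the genes taken, and the part of other cell types in their mean was not tested. Relative to the mean of the 16 genes, Retnla was -1.23 and -0.90 in LLC pools and 0.73 and 0.95 in LLC-Chem pools, a difference of 1.91. Cd163 was -0.97 and -1.82 in LLC pools and 0.27 and 0.26 in LLC-Chem pools, a difference of 1.66. Both genes were thus higher relative to the identity genes in both LLC-Chem pools, without overlap.

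Apoe stood on the other side, at 3.61 and 3.87 in LLC pools against 2.34 and 2.27 in LLC-Chem pools, a difference of -1.44 beyond the identity genes and again without overlap. For Retnla, Cd163 and Apoe the exact two-sided permutation p was 0.333, the smallest that 2 pools against 2 can give. Trem2, Chil3 and Marco differed by 0.04, 0.19 and 0.24, Csf1r by -0.30 and Nos2 by 1.05, all with overlapping pools. With Csf1r as the only reference on the RPM scale, the ratio of Retnla to Csf1r was 0.197 and 0.183 in LLC pools and 0.706 and 1.11 in LLC-Chem pools, that of Cd163 was 0.237 and 0.0965 against 0.513 and 0.687, and that of Apoe was 5.70 and 5.03 against 2.15 and 2.78. The 3 genes kept their direction under either reference, as did Nos2, Chil3, Trem2 and Marco.

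**Figure D4:**
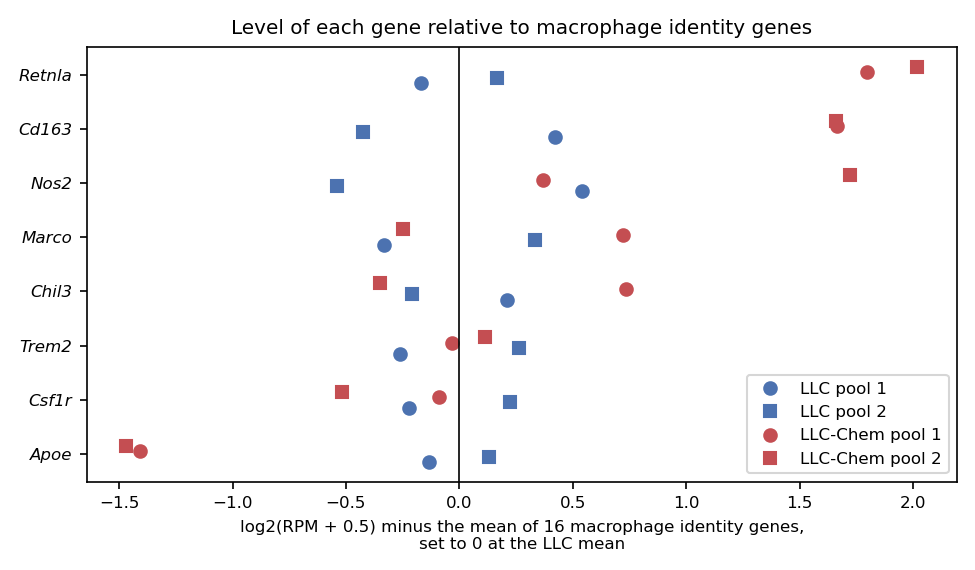
Level of each gene relative to the mean of 16 macrophage identity genes of the same pool (horizontal axis, log2, set to 0 at the LLC mean), with blue for LLC, red for LLC-Chem, circles for pool 1 and squares for pool 2. Retnla and Cd163 lie to the right of both LLC pools in both LLC-Chem pools, by 1.91 and 1.66 in the means, Apoe lies to the left by 1.44, and the other 5 genes overlap.

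Levels between genes were compared per kilobase of the principal transcript. In LLC tumors Apoe was highest, with a mean of 1616 RPM per kilobase, followed by Retnla (135), Csf1r (91.5), Trem2 (83.5), Nos2 (36.2), Cd163 (14.7), Chil3 (3.75) and Marco (1.99). The pool ranges of Retnla and Csf1r, and of Csf1r and Trem2, overlapped, and the other neighbours were apart. In tumors labelled LLC-Chem, Apoe (265) and Retnla (221) came first with overlapping pools, followed by Trem2 (36.6), Csf1r (33.8), Nos2 (32.2), Cd163 (20.48), Chil3 (2.09) and Marco (1.03). There, the ranges of each pair of neighbours from Trem2 to Cd163, and of Chil3 and Marco, overlapped.

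The 2 LLC-Chem pools were not alike. Of the 8 genes, 7 were lower in the second LLC-Chem pool than in the first, against 51.6% of all genes tested, and all 17 identity genes were lower there. Summed levels of erythroid markers were 143 RPM in the first LLC-Chem pool and 4.25 RPM in the second, against 115 and 46.1 RPM in LLC pools, and their part in the results was not tested. Leaving out the second LLC-Chem pool gave log2 fold changes of -2.26 for Apoe, -0.94 for Csf1r, -0.89 for Trem2, 0.94 for Retnla and 0.81 for Cd163. Leaving out the first gave -2.998, -2.05, -1.42, 0.49 and 0.13 in the same order. Without the first LLC pool the values were -2.89, -1.84, -1.54, 0.42 and 0.77, and without the second they were -2.37, -1.15, -0.77, 1.01 and 0.17, so that Trem2 and Retnla ranged more widely over the LLC pools than over the LLC-Chem pools. With any pool left out, limma called none of the 13694 genes tested at an adjusted p under 0.05 and 2578 to 4973 at an unadjusted p under 0.05. In each of these fits 1 group is a lone pool, assumed to vary like the pools of the other group.

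**Figure D5:**
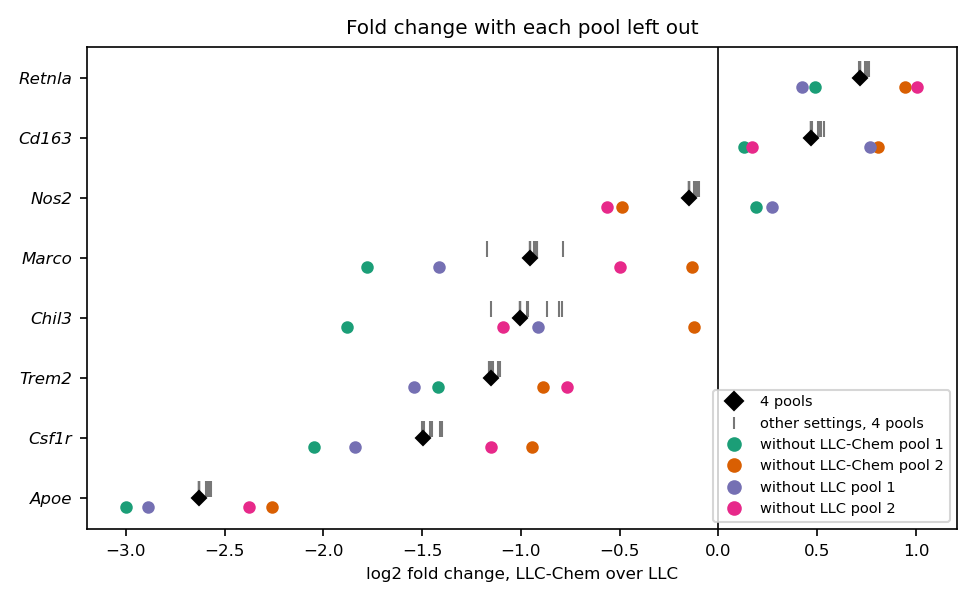
Log2 fold change of each gene in LLC-Chem over LLC tumors (horizontal axis) with all 4 pools (black diamonds), under other settings with all 4 pools (grey ticks) and with each pool left out (coloured circles). Apoe stays between -2.998 and -2.26, Nos2 changes sign, and Chil3 and Marco come to -0.12 and -0.13 without the second LLC-Chem pool and to -1.88 and -1.78 without the first.

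Markers of other cell types were measured in the same pools. Of 5 endothelial markers all 5 fell, with summed levels of 138 to 198 RPM in LLC and 24.8 to 46.0 RPM in LLC-Chem pools. Of 4 tested neutrophil markers of 8, Csf3r, S100a8 and S100a9 fell and Cxcr2 was not called, with sums of 111 to 183 against 17.6 to 42.9 RPM. Of 4 tested mast cell markers of 6, 3 fell and Kit was not called, with sums of 25.8 to 59.8 against 8.75 to 13.2 RPM, and of 3 tested T, B and NK cell markers of 9, Ncr1 and Klrb1c fell and Cd4 was not called, with sums of 9.39 to 11.8 against 1.05 to 3.15 RPM. Of 5 tested dendritic cell markers of 7, Flt3 fell and 4 were not called, a share to be read beside the 13.5% called lower over all genes, with sums of 39.4 to 47.9 against 28.4 to 36.2 RPM. Among those 4, both LLC-Chem pools were above both LLC pools for Zbtb46 and Clec9a, with log2 fold changes of 0.44 and 0.37, and below them for Cd209a and Ccr7, at -0.80 and -1.34. Over all genes tested, 33.1% lay above and 39.3% below in this way.

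Of 5 fibroblast markers, Col1a1 and Col1a2 fell, Pdgfra rose, and Dcn and Lum were not called, with log2 fold changes of 0.80 and 1.00. Both LLC-Chem pools were above both LLC pools for Pdgfra, Dcn and Lum, against 33.1% of all genes tested, and the median of the 5 was 0.72. Their sums, made up mostly of Col1a1 and Col1a2, were 11800 to 20339 against 6869 to 8559 RPM. Of 3 tested adipocyte markers of 4, Cfd rose, and Fabp4, the most abundant, and Adipoq had overlapping pools and were not called, with log2 fold changes of -0.67 and 0.87. The adipocyte sums overlapped, at 20.0 to 28.0 against 14.2 to 39.7 RPM. Of 5 skeletal muscle markers Tnnt3, the only one tested, rose, Ckm and Myh4 were listed at 0 in every pool, and the other two stayed below the minimum, with Acta1 at 0.25 and 0.4997 RPM in LLC against 0.1499 and 0.0999 RPM and Mylpf at 1.05 and 0.850 RPM against 0.850 and 0.650 RPM. The muscle sums, 2.35 to 3.10 against 4.15 to 5.35 RPM, were higher in LLC-Chem pools through Tnnt3 alone. Keratinocyte markers, of which Krt10 was the only one tested and was not called, summed to 2.998 to 4.45 against 2.10 RPM. The part of these cell types in the levels of Apoe, Retnla and the other members was not tested.

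For each member, the 3 genes nearest in pattern were taken by the Euclidean distance of centred log2 levels over the 4 pools, as a description. Csf1r lay nearest to Fgr, a kinase of myeloid cells (36.1, 59.2, 23.2 and 11.04 RPM, distance 0.05), F10 and Fam20c. Retnla lay nearest to Lipn, Dcn and Gnaz. Dcn, which encodes the matrix proteoglycan decorin and is a fibroblast marker, stood at 849.9 and 1286 RPM in LLC and at 2085 and 1583 RPM in LLC-Chem, at a distance of 0.09 from Retnla. Apoe lay nearest to Cd300a, an inhibitory receptor of leukocytes, Mmp9 and Abcc3, and Trem2 to Cul9, Dpep1 and Adamts2. Cd163 lay nearest to Adamts8, Ciart and Rpl9-ps6, Nos2 to Sfrp5, Oas1b and Ereg, Chil3 to Myoc, Clec7a and Cd4, and Marco to Gm25911, Chp2 and Enpep. This likeness rests on 4 pools.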

How the data were processed

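RNA of 4 pools of 3 tumors was sequenced. Per the labels and the study's methods, the authors aligned the read pairs to the GRCm38 genome in STAR, obtained counts for Ensembl release 84 genes in HTSeq and deposited them as RPM, scaled to 1000000. Tool versions and the use of strand are not given in the sources used here. All deposited values above 0 were whole steps (tolerance 0.1 of a step), from which library totals of 28470000 to 33990000 reads were fitted on a grid of 1000 and the reads of each gene estimated. Since 1 step spans 1.42 to 1.70 reads, neighbouring read counts can share a value.

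From the deposited RPM, log2(RPM + 0.5) was tested with limma 3.58.1 (lmFit, eBayes with trend, R 4.3.3), two-sided, for the 13694 genes averaging 1 RPM or more, over which p-values were adjusted by Benjamini-Hochberg. Fold changes are on this scale and understate those of low genes. Tested on simulated data for LLC-Chem against LLC (13667 genes), limma called 78 of 96 genes changed by 1 on the log2 scale and 96 of 96 changed by 2. Every simulated gene had the same spread between pools, set beforehand and not fitted to the real pools. These shares are therefore not the chance of a call for genes that vary more. Lyz2 and Adgre1, at -1.27 and -1.01 in the real pools, were not called. Alternatives were edgeR 4.0.16 and DESeq2 1.42.0 on the estimated reads, TMM and median-of-ratios scaling, other pseudocounts and filters, eBayes without trend, leaving out each pool and the replicate block. The crossed pairing was added after the data were seen. Coordinates are from GENCODE M21.

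The members and all lists were chosen with earlier results of these data known. Results for a further gene of the set, and for some genes of the lists, are not reported here, and they were left out of the counts and means. The text names the other members, Rarres2, called genes of each pathway list, the 3 most abundant genes not called in each, and the 3 nearest genes of each member. Genes of the lists for other cell types are named in part.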

Additional observations from a re-analysis of the deposited data

How the results depend on the processing

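The fall of Apoe was called under most settings, and those of Trem2 and Csf1r lay at the threshold. Of the 8 genes, 3 were called lower in the reported fit, 2 with DESeq2, 1, Apoe, with TMM scaling, with median-of-ratios scaling, with a minimum of 0.3 RPM, with edgeR, with the replicate block and without trend, and 0 of 8 by limma when all genes above 0 were tested or any pool was left out (range 0 to 0). DESeq2 and the crossed pairing each called 1 gene higher, Retnla. Over all genes tested, 1306 were called higher and 1848 lower, against 1 and 0 when all genes above 0 were tested, 549 and 1064 with the replicate block, and 0 and 0 with any pool left out. The cause was not tested. DESeq2 called 1876 higher and 2271 lower and edgeR 1551 and 1600.

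The labels do not say whether pools of the same number were handled together. Their deviations correlated at -0.14 across genes, a single value that cannot exclude such a pairing. The crossed pairing called 1579 genes higher and 2320 lower.

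Without single pools, the log2 fold change of Nos2 ran from -0.56 to 0.27 and reversed at 0.19 without the first LLC-Chem pool and 0.27 without the first LLC pool. Relative to the identity genes, Chil3 ran from -0.35 (reversed, without LLC-Chem pool 1, and at -0.02 without LLC pool 2) to 0.73, Trem2 from -0.22 (reversed, without LLC pool 1, and at -0.03 without LLC-Chem pool 2) to 0.30 and Marco from -0.25 (reversed, without LLC-Chem pool 1, and at -0.10 without LLC pool 1) to 0.72. Retnla, Cd163 and Apoe kept their direction there under each pseudocount, reference and pool left out. So did Nos2, from 0.37 to 1.72 with single pools left out. Csf1r, from -0.53 to -0.08, kept its direction under each pseudocount and pool left out. The lowest estimated counts were 40 reads of Chil3 and 23 of Marco, both in the second LLC-Chem pool, and the part of counting error in the spread between pools was not tested.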
